A study of Mus musculus with 6 samples.

Results

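Fatty acid synthesis turns citrate into long-chain fatty acids in the cytosol, and lipid storage places fatty acids in droplets as neutral glycerides. In lung, alveolar type 2 cells make fatty acids for the phospholipid of surfactant, alveolar macrophages take up and break down surfactant lipid, and capillaries pass on fatty acids released from circulating lipoproteins. The transcription factor SREBP-1 switches on the synthesis enzymes, and its activation is held back by INSIG proteins in the endoplasmic reticulum.

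The 10 genes described here were a set chosen by role: the SREBP-1 gene Srebf1, the synthesis enzyme genes Acly, Acaca and Fasn, the chain-modifying enzyme genes Elovl6, Scd1 and Scd2, the droplet coat gene Plin2, and the uptake genes Lpl and Cd36. They are 10 of the 24061 genes in the deposited table, and all 10 were among the 16089 genes with enough counts to be tested. The assay was RNA sequencing of bulk lung tissue from mice. The 3 CCSP/TGFalpha samples, called TGFalpha below, carry CCSP together with TGFalpha, and the 3 CCSP/- samples, called control, carry CCSP alone. Both groups were given doxycycline for 3 weeks, so the agent is shared. CCSP stands for club cell secretory protein; its promoter serves to drive transgenes in lung epithelium, and TGFalpha is a ligand of the epidermal growth factor receptor. The strain, age and sex of the mice, the exact driver construct and whether replicates were separate animals are not given in the sources used here, so a p-value here reflects no more than the spread among these libraries, which may be technical.

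The libraries held 21479006 to 24914322 counts each. All 12 alveolar type 2 markers had counts, with a summed level of 22293 to 23122 CPM in TGFalpha lungs and 21316 to 27483 CPM in control lungs (CPM is counts scaled to a common library size, as edgeR computes them). In 1 library of each group, TGFalpha replicate 1 and control replicate 1, skeletal muscle transcripts were abundant: the 14 markers summed to 3484 and 1970 CPM there, and to 68.3 to 90.4 CPM in the other 4 libraries. Alveolar macrophage transcripts also varied between libraries, and values beside the results below show where.

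Of the 10 genes, 1 fell in TGFalpha lungs and none rose at a Benjamini-Hochberg adjusted p under 0.05 with edgeR's quasi-likelihood test, 2 had an unadjusted p under 0.05 (Cd36 lower, Lpl higher), and DESeq2 and limma-voom also called 1. Across all 16089 genes 8.33% were called, 3.29% as lower and 5.03% as higher, and 27% had an unadjusted p under 0.05. The gene that fell was Cd36, the fatty acid translocase. The synthesis genes Acaca and Fasn, the regulator Srebf1 and the droplet gene Plin2 had fitted log2 fold changes between -0.08 and 0.11, although the intervals of Fasn and Plin2 were wide. The median log2 fold change of the 10 genes was -0.00259, beside 0.01 over all tested genes, and for 2 of them every TGFalpha level lay on one side of every control level, as it did for 33.2% of all genes.

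**Figure D1:**
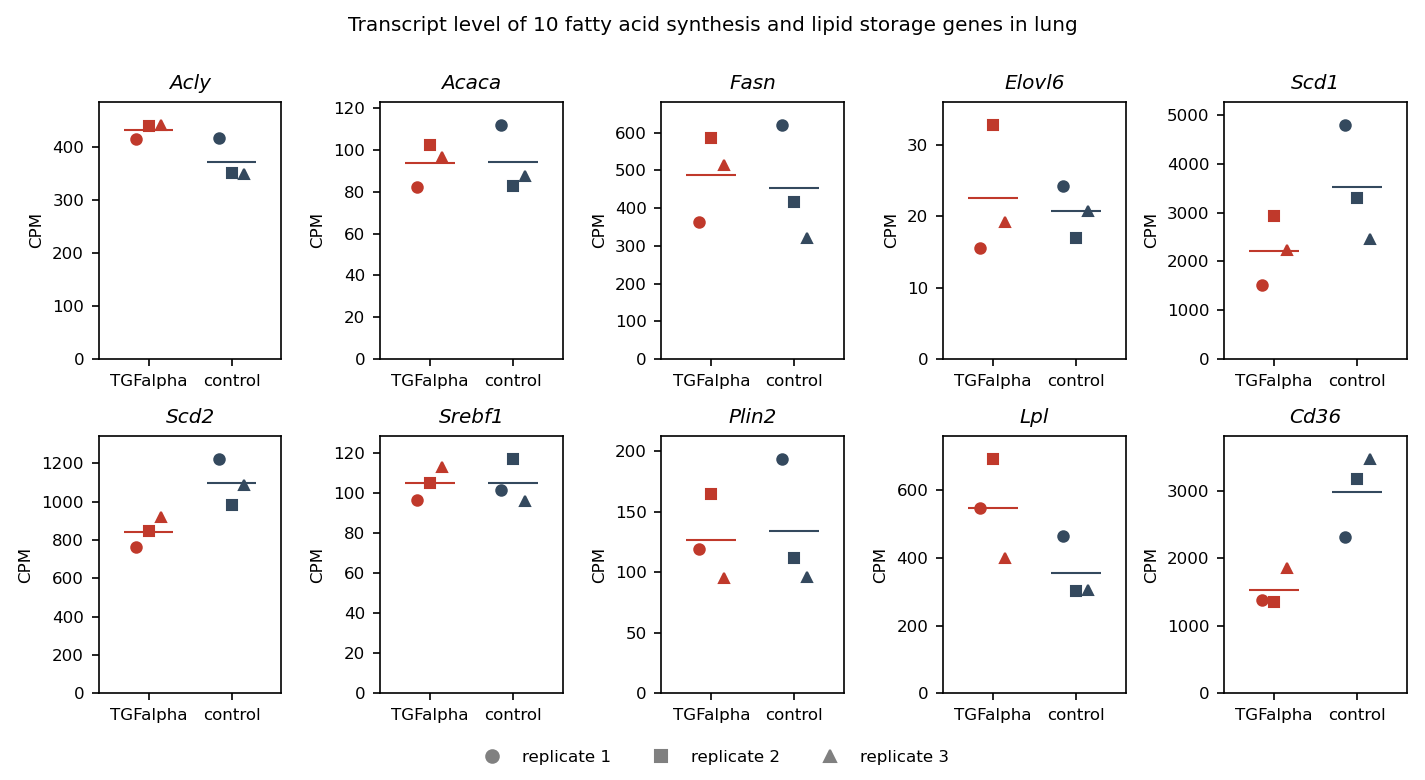
Level of each of the 10 genes in CPM (vertical axis, from 0, scaled per gene) in each library, with TGFalpha lungs on the left and control lungs on the right; point shapes are replicates and lines are group means (n = 3 each). Only Cd36 and Scd2 show no overlap between the groups, and only Cd36 passed the test.

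A pair of promoter stretches is printed to show the gene that fell beside the fatty acid synthase gene, which did not pass. Each is the 250 bases before 1 annotated start of transcription, 5′ to 3′ along the gene, from RefSeq on GRCm38.p6, and both genes lie on the minus strand. The Cd36 stretch is chr5:17835897-17836146 and the Fasn stretch is chr11:120824548-120824797. Capitals mark the CCAAT box, the letters CCAAT on either strand, which is bound by the factor NF-Y, a partner of SREBPs.
Cd36: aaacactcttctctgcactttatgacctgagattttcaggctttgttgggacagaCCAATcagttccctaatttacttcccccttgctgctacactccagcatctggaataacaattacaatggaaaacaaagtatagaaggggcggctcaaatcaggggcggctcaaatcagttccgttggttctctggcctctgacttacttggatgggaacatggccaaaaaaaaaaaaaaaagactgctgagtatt
Fasn: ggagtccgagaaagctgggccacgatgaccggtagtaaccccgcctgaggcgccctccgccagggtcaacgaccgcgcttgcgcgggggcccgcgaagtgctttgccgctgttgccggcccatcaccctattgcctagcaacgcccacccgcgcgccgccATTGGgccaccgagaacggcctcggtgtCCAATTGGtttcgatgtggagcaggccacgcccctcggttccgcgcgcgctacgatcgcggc
The Cd36 stretch held 1 match and the Fasn stretch 3, of which the last 2 overlap in the letters CCAATTGG. Promoter windows of 300 bases (250 before and 50 after the start) were on hand for 7 of the 10 genes (Acly, Acaca, Fasn, Elovl6, Srebf1, Plin2 and Cd36), with 9 windows in all because some genes have several starts. CCAAT on either strand was in 6 of the 9 windows, from 5 genes, against 37.4% of all 32851 windows. The GC box GGGCGG was in 5 of the 9, from 4 genes (35.7% of all windows), and the E-box CACGTG was in 1, that of Plin2 (7.15%). The letters TCACNCCAC, a form of the sterol regulatory element, and the DR1 element bound by PPARs were in none of them and in 1.24% and 0.0396% of all windows. A match describes the letters and is not evidence of binding.

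Srebf1 (gene ID 20787; GRCm38, chromosome 11, 60199084 to 60224186) encodes SREBP-1, the main transcriptional regulator of fatty acid synthesis. It was at 96.7, 105 and 113 CPM in TGFalpha lungs, against 102, 117 and 96.1 CPM in control lungs. The groups covered the same range, and the fitted log2 difference was 0.00 ± 0.15 (SE) with an adjusted p of 0.996 by edgeR. The 95% interval spanned -0.33 to 0.34, so a change of the size seen for Cd36 lies outside it. Exons of Rai1, on the opposite strand, share 1.94% of the exon bases of Srebf1, and the strand setting of the counting was not given.

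Acly (gene ID 104112; chromosome 11, 100476352 to 100528000) encodes ATP citrate lyase, which makes the acetyl-CoA from which fatty acids are built. It was at 417, 439 and 442 CPM in TGFalpha lungs and at 417, 352 and 349 CPM in control lungs. Only control replicate 1 reached the TGFalpha range, and the log2 fold change was 0.22 ± 0.15 (edgeR adjusted p = 0.382).

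Acaca (gene ID 107476; chromosome 11, 84129635 to 84401651) encodes acetyl-CoA carboxylase 1, which makes malonyl-CoA, the committed step of synthesis. It was at 82.3, 102 and 96.8 CPM in TGFalpha lungs and at 112, 82.8 and 87.8 CPM in control lungs, with group means of 93.7 ± 10.2 and 94.2 ± 15.5 CPM (SD, n = 3 each). The groups overlapped fully, and the interval of the log2 fold change ran from -0.39 to 0.38 (edgeR adjusted p = 0.984). The fitted change was -0.00634, and it was positive without TGFalpha replicate 1 (0.0806) or control replicate 1 (0.13).

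Fasn (gene ID 14104; chromosome 11, 120805958 to 120825166) encodes fatty acid synthase, which joins malonyl-CoA units into palmitate. It was at 363, 587 and 513 CPM in TGFalpha lungs and at 620.4, 417 and 321 CPM in control lungs. Each group spanned a wide range, with the highest value of all in control replicate 1. The log2 fold change was 0.11 ± 0.27 (edgeR adjusted p = 0.829; negative without TGFalpha replicate 2, at -0.0452, or control replicate 3, at -0.0936, and 0.57 without both replicate 1 libraries), with an interval from -0.52 to 0.74, which leaves changes in either direction undetectable within those bounds.

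Elovl6 (gene ID 170439; chromosome 3, 129532386 to 129638495) encodes the elongase that extends palmitate to stearate. It was the lowest of the 10 genes in every library, and was ranked 7887 of the 16089 genes by CPM over the 6 libraries. Its level was 15.5, 32.8 and 19.2 CPM in TGFalpha lungs and 24.2, 17 and 20.8 CPM in control lungs. TGFalpha replicate 2 held the highest value and TGFalpha replicate 1 the lowest, and the log2 fold change was 0.12 ± 0.28 (edgeR adjusted p = 0.812; -0.25 without TGFalpha replicate 2 and 0.45 without both replicate 1 libraries).

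Scd1 and Scd2 encode stearoyl-CoA desaturases, which place the first double bond in stearate and palmitate. Scd1 (gene ID 20249; chromosome 19, 44394450 to 44407709) was at 1519, 2921 and 2229 CPM in TGFalpha lungs and at 4791, 3296 and 2463 CPM in control lungs. Control replicate 3 lay below TGFalpha replicate 2, and the difference did not pass (log2 fold change -0.66 ± 0.32, edgeR adjusted p = 0.231, interval -1.41 to 0.08). The log2 fold change of Scd1 was -0.38 without control replicate 1 and -0.17 without both replicate 1 libraries. It was ranked 19 of the 16089 genes by CPM over the 6 libraries.

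Scd2 (gene ID 20250; chromosome 19, 44293676 to 44306864) was at 761, 848 and 917 CPM in TGFalpha lungs and at 1220.5, 984 and 1086 CPM in control lungs. All 3 TGFalpha values lay below all 3 control values, but the difference did not pass either (log2 fold change -0.38 ± 0.17, edgeR adjusted p = 0.198, interval -0.78 to 0.01; -0.23 without both replicate 1 libraries). The neighbouring paralogs Scd3 and Scd4 had log2 fold changes of -0.52 ± 0.28 and -0.61 ± 0.23 (adjusted p = 0.267 and 0.136; Scd3 was at -0.26 without control replicate 2), so the fitted changes of all 4 Scd genes were negative and none passed. The read length is not given in the labels; taking 50 bases as an assumed length, 4.56% of such windows of the Scd1 transcripts and 3.75% of those of Scd2 also occur in another of the 4 genes, and the rule used for reads that match several genes was not given. Per kilobase of exon, the ratio of Scd1 to Scd2 was 2.23, 3.85 and 2.72 in TGFalpha lungs and 4.38, 3.74 and 2.53 in control lungs, and these ranges overlapped.

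Plin2 (gene ID 11520; chromosome 4, 86626910 to 86670217) encodes perilipin 2, a coat protein of lipid droplets in many cell types. It was at 119, 165 and 95 CPM in TGFalpha lungs and at 193, 112 and 96.4 CPM in control lungs. Control replicate 1 and TGFalpha replicate 2 stood above the rest, and the group ranges overlapped almost fully. The log2 fold change was -0.08 ± 0.30 (edgeR adjusted p = 0.883; positive without TGFalpha replicate 3, at 0.0787, or control replicate 1, at 0.27), with an interval from -0.76 to 0.60.

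Lpl (gene ID 16956; chromosome 8, 68880555 to 68906932) encodes lipoprotein lipase, which frees fatty acids from circulating triglyceride at the capillary wall. It was at 549, 692 and 401 CPM in TGFalpha lungs and at 466, 301 and 304 CPM in control lungs. TGFalpha replicate 3 lay below control replicate 1, and the rest of the TGFalpha values lay above all control values. The log2 fold change was 0.62 ± 0.25, with an interval from 0.03 to 1.20, and it did not pass over all genes (edgeR adjusted p = 0.165). It was positive in all 16 alternative fits, and in none of them did it pass. Lpl is also transcribed in muscle: without the replicate 1 libraries, which held the skeletal muscle transcripts, its log2 fold change was 0.85 (adjusted p = 0.142). The part of the muscle transcripts in the level of Lpl was not tested.

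Cd36 (gene ID 12491; chromosome 5, 17781690 to 17888959) encodes a scavenger receptor that brings long-chain fatty acids into cells. It was at 1384, 1353 and 1849 CPM in TGFalpha lungs and at 2313, 3175 and 3465 CPM in control lungs. All 3 TGFalpha values lay below all 3 control values. The group means were 1529 ± 278 and 2984 ± 599 CPM (SD, n = 3 each), and Cd36 fell by 0.97 ± 0.24 on the log2 scale (edgeR adjusted p = 0.0447, interval -1.51 to -0.42), to 0.512 of the control level. The call was lost in 4 of the 6 fits with 1 library left out: without TGFalpha replicate 1 or 2 (adjusted p = 0.147 and 0.0987) and without control replicate 2 or 3 (0.13 and 0.157). Without both replicate 1 libraries the log2 fold change was -1.05 (adjusted p = 0.081). In whole lung, fewer cells of a type and less RNA per cell cannot be told apart.

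**Figure D2:**
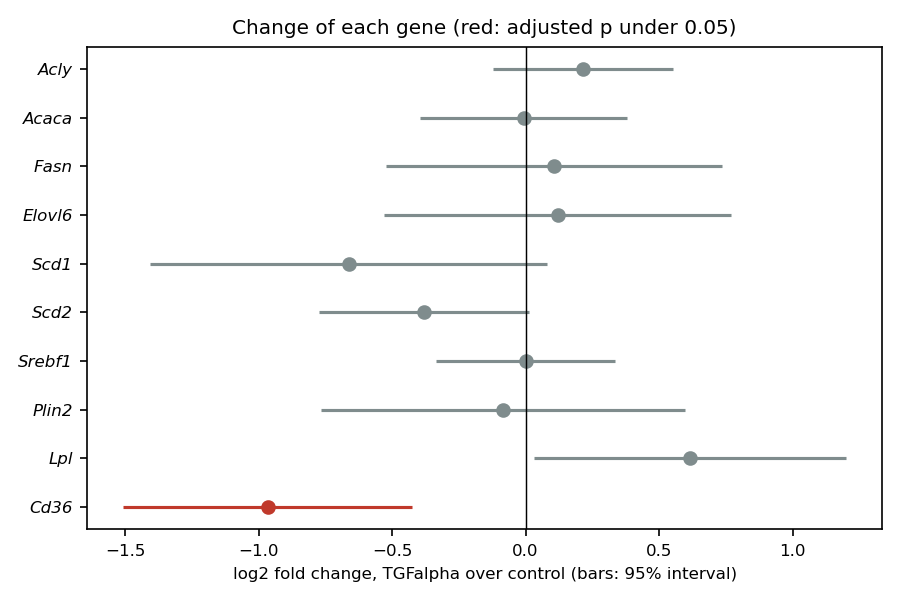
Fitted log2 fold change of each gene, TGFalpha over control (horizontal axis), with its 95% interval as a bar; red marks an adjusted p under 0.05. Cd36 stands alone at -0.97 with an interval that ends at -0.42, Lpl lies at 0.62, and Srebf1 and Acaca lie at 0 with intervals that span both directions.

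Levels were compared between genes per kilobase of exon (CPM divided by the merged exon length in GENCODE M21). In TGFalpha lungs Scd1 (454 ± 143) and Cd36 (426 ± 77.3) were highest, followed by Scd2 (154 ± 14.3), Acly (82 ± 2.67), Lpl (52.2 ± 13.9), Fasn (44.6 ± 10.4), Plin2 (36 ± 10.1), Srebf1 (18.6 ± 1.46), Acaca (5.49 ± 0.6) and Elovl6 (3.5 ± 1.41 CPM per kilobase; SD, n = 3). In control lungs the order was Cd36 (831 ± 167), Scd1 (719 ± 241), Scd2 (201 ± 21.7), Acly (70.6 ± 7.27), Fasn (41.4 ± 14), Plin2 (38.1 ± 14.9), Lpl (34.1 ± 8.98), Srebf1 (18.6 ± 1.93), Acaca (5.51 ± 0.91) and Elovl6 (3.22 ± 0.563). Library values of Cd36 and Scd1 overlapped in either group, as did those of Fasn, Plin2 and Lpl. Within each TGFalpha library, however, Lpl (52.4, 66.1 and 38.2) lay above Plin2 (33.9, 47 and 27.1 CPM per kilobase). Within each control library Fasn lay above both Plin2 and Lpl. Differences between genes were not tested. The merged exons of Acaca come to 17074 bases from many isoforms, which lowers its value per kilobase.

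The fall of Cd36 went together with lower transcript of capillary endothelium, a cell type that makes Cd36. All 12 capillary markers had a negative log2 fold change (median -1.27), and 7 of the 12 fell, beside 3.29% of all tested genes. The marker list was chosen with earlier results of these data known. Their summed level was 2079, 2447 and 3909 CPM in TGFalpha lungs and 4632, 7675 and 8109 CPM in control lungs. The library order of Cd36 followed that sum closely, except that TGFalpha replicates 1 and 2 changed places. Cd36 divided by the sum was 0.666, 0.553 and 0.473 in TGFalpha lungs and 0.499, 0.414 and 0.427 in control lungs, and these ranges overlapped. The part of the capillary markers in the result was not tested. The summed level of 10 cardiac muscle markers, a tissue that also makes Cd36, was 62.4 to 97.2 CPM in TGFalpha lungs and 112 to 172 CPM in control lungs. The 9 tested all had a negative log2 fold change (median -0.74), and 1 fell, beside 3.29% of all tested genes. At an unadjusted p under 0.05, 3 were lower. All 12 alveolar macrophage markers described below also had a negative log2 fold change. The part of the cardiac and macrophage markers in the fall of Cd36 was not tested either.

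Some of the genes were highest in the same libraries within each group. Acaca, Fasn, Elovl6, Scd1, Plin2 and Lpl, 6 of the 10 genes, were each highest in replicate 2 among TGFalpha lungs and in replicate 1 among control lungs, an arrangement found for 14.2% of all tested genes. Acly and Scd2 were highest in TGFalpha replicate 3 and control replicate 1, Srebf1 in TGFalpha replicate 3 and control replicate 2, and Cd36 in replicate 3 of both groups. The same libraries held the most transcript of alveolar macrophages, with 8 of 12 markers in that arrangement. The 12 markers summed to 3828, 17955 and 3291 CPM in TGFalpha lungs and to 22096, 9365 and 6808 CPM in control lungs. A large share of this was Chil3, a secreted chitinase-like protein gene. Without Chil3 the other 11 summed to 1947, 3498 and 1550.1 CPM in TGFalpha lungs and 5673, 2934 and 1917 CPM in control lungs. None of the 12 passed the test between groups (median log2 fold change -0.55, all 12 negative). Without TGFalpha replicate 2 and control replicate 1 together, a choice made after seeing these values, the log2 fold changes were 0.07 for Acaca, 0.25 for Fasn, -0.12 for Elovl6, -0.62 for Scd1, 0.04 for Plin2 and 0.65 for Lpl, none of which passed. The part of the macrophage transcripts in the spread of these genes was not tested.

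**Figure D3:**
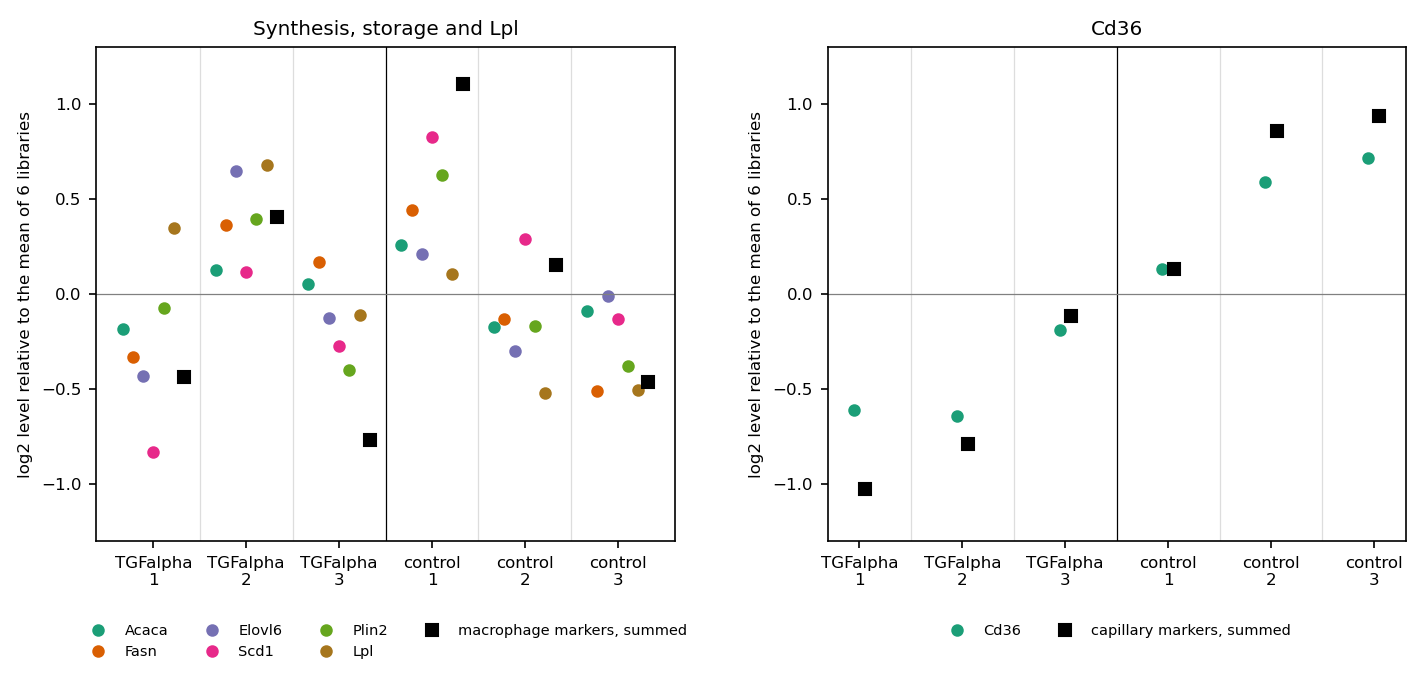
Log2 level in each library relative to the mean of the 6 libraries (vertical axis), TGFalpha libraries left of the black line and control libraries right of it. Left, 6 genes (circles) and the summed alveolar macrophage markers without Chil3 (black squares), each highest within its group in TGFalpha replicate 2 and control replicate 1; right, Cd36 (circles) and the summed capillary markers (squares), low together in the 3 TGFalpha libraries.

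Of 11 adipocyte markers, another cell type rich in lipid genes, 8 were tested and none passed by edgeR, with none at an unadjusted p under 0.05. Of these 8, 4 had a positive log2 fold change and 4 a negative one (median 0.008). All 11 together summed to 299, 261 and 68.3 CPM in TGFalpha lungs and to 191, 69.4 and 59.8 CPM in control lungs. The 11 lipofibroblast and fibroblast markers summed to 1905 to 2747 CPM in TGFalpha lungs and 2083 to 3382 CPM in control lungs. Of these 11, 8 had a negative log2 fold change and 3 a positive one (median -0.31). By edgeR 1 rose, beside 5.03% of all tested genes, and none fell. At an unadjusted p under 0.05, 1 was higher and 3 lower, beside 27% of all tested genes. Adipoq, the adiponectin gene, was at 1.15, 7.44 and 0.251 CPM in TGFalpha lungs and at 2.21, 1.79 and 1.46 CPM in control lungs. Lep, the leptin gene, had 4, 12 and 7 counts in TGFalpha lungs and 0 counts in every control library. Both genes were picked from the list after their values were seen, and the counts of Lep were few.

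The genes whose level followed each of the 10 most closely over the 6 libraries were found by the root mean square distance between log2 profiles, over 15014 other genes with a mean of at least 1 CPM. Those nearest to Cd36 were Pltp, the phospholipid transfer protein gene (distance 0.048), and S1pr1, a sphingosine-1-phosphate receptor gene (0.059), which both fell (log2 fold change -0.96 and -1.03). The profiles keep the difference between groups, so a near gene shares the change of the member by construction. Nearest to Plin2 were the lysosomal genes Grn (0.08) and Hexa (0.088), and nearest to Fasn was Man1a, a Golgi mannosidase gene (0.082). Scd1 was followed most closely by Kcnn3, a potassium channel gene (0.051), and Lpl by Rap2b, a small GTPase gene (0.072). Among the 10 genes themselves, Acaca and Acly were the closest pair (0.14). The member nearest to Cd36 was Scd2, at a distance of 0.397.

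The wider lipid pathways were described with 8 further lists of 155 genes, of which 145 were tested. Of these, 4 rose and 3 fell, or 7 of 145, a share below the 8.33% of all genes, and their median log2 fold change was 0.09 beside 0.01 over all genes. The 7 were the uptake genes Angptl4 and Lipg, the elongation genes Hacd1 and Hacd2, the carnitine transferase gene Cpt1c, the regulator gene Insig1 and the kinase subunit gene Prkaa2.

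**Figure D4:**
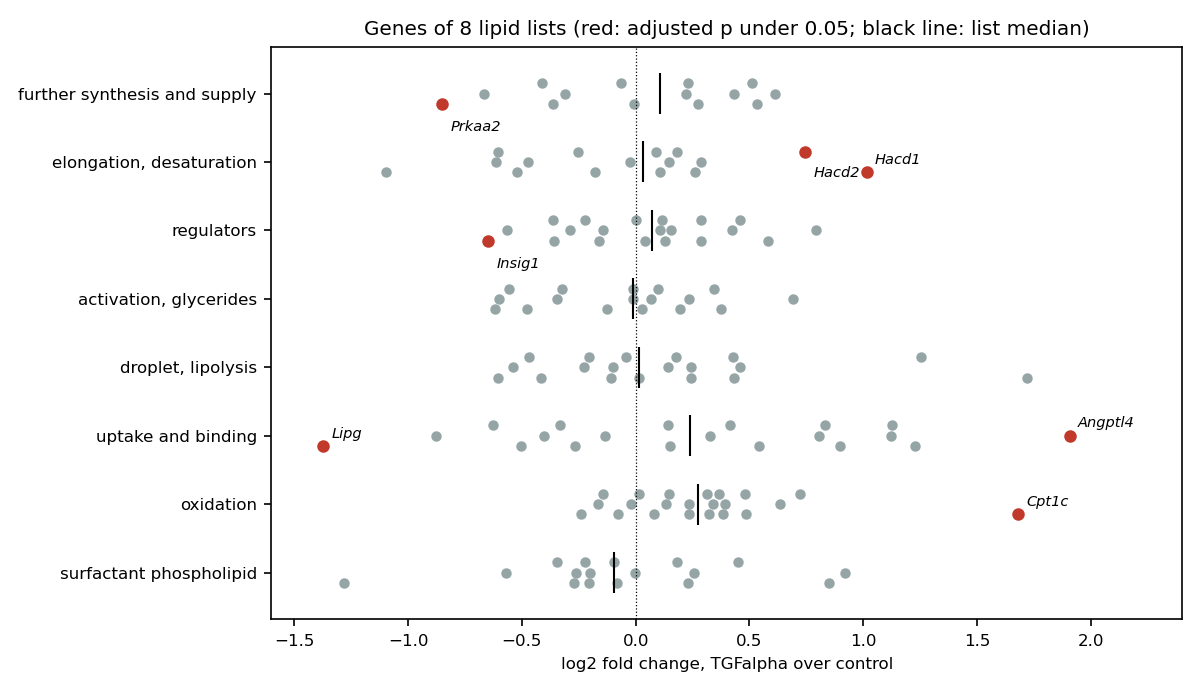
Log2 fold change, TGFalpha over control (horizontal axis), of the tested genes of 8 lipid lists (rows), with called genes in red and named and the list medians as black lines. The called genes are few and lie on both sides of 0.

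Of 20 tested uptake and binding genes, 1 rose and 1 fell, beside 5.03% and 3.29% of all tested genes. The list had a median log2 fold change of 0.24 (-0.0322 without TGFalpha replicate 2). Angptl4, which encodes a secreted inhibitor of lipoprotein lipase, was at 33.4, 43.4 and 23.4 CPM in TGFalpha lungs, against 11, 5.59 and 10.1 CPM in control lungs. The groups did not overlap, and Angptl4 rose 3.75-fold (log2 fold change 1.91 ± 0.31, edgeR adjusted p = 0.0128). Among the fits with 1 library left out, only the one without control replicate 3 lost the call (adjusted p = 0.0612).

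Lipg, the gene of endothelial lipase, which acts mainly on phospholipid of high-density lipoprotein, was at 11.6, 10.9 and 15.5 CPM in TGFalpha lungs and at 19.4, 32.4 and 46.9 CPM in control lungs. All TGFalpha values were lower, with a log2 fold change of -1.37 ± 0.31 (edgeR adjusted p = 0.0375), and the call was lost in 5 of the 6 fits with 1 library left out (adjusted p up to 0.138). Gpihbp1, which encodes the capillary protein that carries lipoprotein lipase to the vessel lumen, was at 22.4, 17.2 and 24.2 CPM in TGFalpha lungs and at 25.5, 45.5 and 46 CPM in control lungs. The groups did not overlap, but its difference did not pass (log2 fold change -0.88 ± 0.25, adjusted p = 0.0711). It passed in 4 of the 16 alternative fits: without control replicate 1 (-1.11, adjusted p = 0.0226), by DESeq2 (0.0121), without both replicate 1 libraries (0.049) and without TGFalpha replicate 2 and control replicate 1 together (0.0368). The ratio of Lpl to Angptl4 in CPM was 16.4, 16 and 17.1 in TGFalpha lungs and 42.5, 53.9 and 30 in control lungs, and that of Lpl to Gpihbp1 was 24.6, 40.3 and 16.6 in TGFalpha lungs and 18.3, 6.63 and 6.61 in control lungs. The first ratio was lower in every TGFalpha library, while the second overlapped between the groups. Both Lipg and Gpihbp1 are endothelial genes. Like the capillary marker sums given above, both were lower in every TGFalpha library than in any control library. The library order was that of the sums, except that TGFalpha replicates 1 and 2 changed places. The part of the capillary markers in these levels was not tested.

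**Figure D5:**
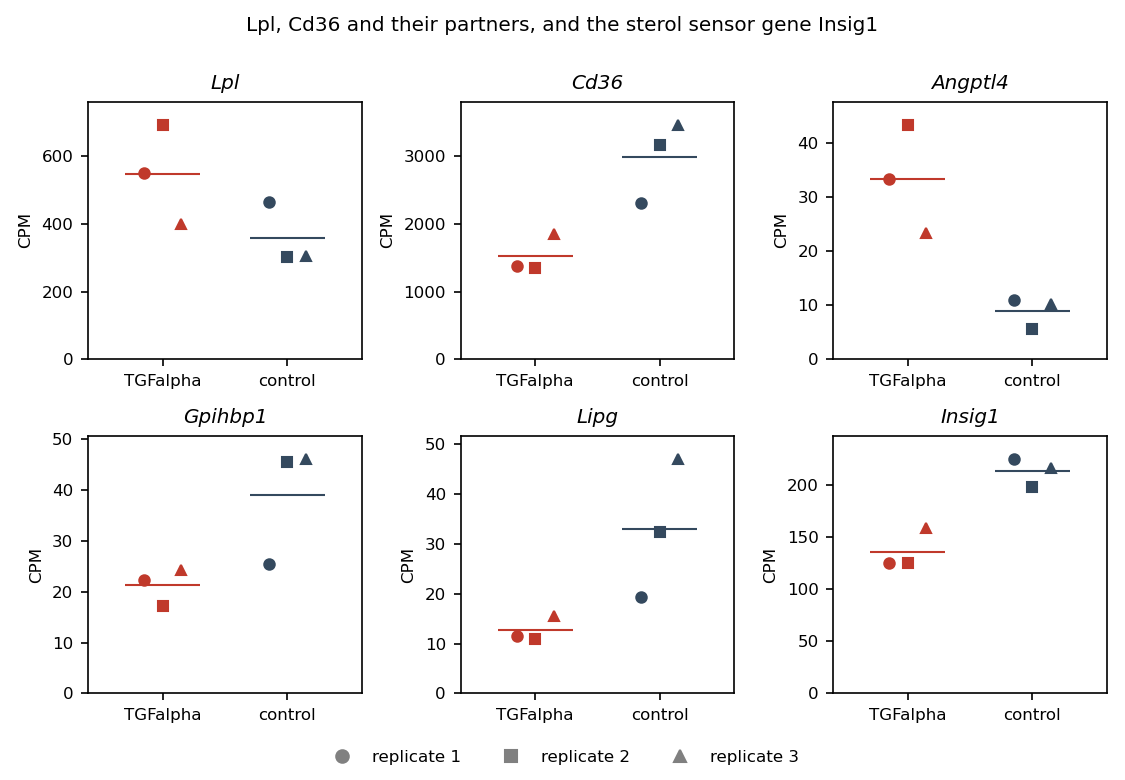
Level in CPM (vertical axis, from 0, scaled per gene) of Lpl, Cd36, Angptl4, Gpihbp1, Lipg and Insig1 in each library, TGFalpha lungs left and control lungs right; shapes are replicates and lines group means (n = 3 each). Angptl4 is higher and Cd36, Gpihbp1, Lipg and Insig1 are lower in every TGFalpha library than in any control library, while Lpl overlaps.

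Among the regulators, 1 of 20 fell and none rose by edgeR, beside 3.29% and 5.03% of all tested genes. At an unadjusted p under 0.05, 3 were higher and 2 lower, beside 27% of all tested genes. Insig1, itself a target of SREBPs and the anchor that keeps them inactive, was at 125, 125 and 159 CPM in TGFalpha lungs and at 225, 198 and 216 CPM in control lungs. It fell by 0.65 ± 0.15 on the log2 scale (edgeR adjusted p = 0.0423). The call was lost with library totals as the only scaling (adjusted p = 0.0504), in 5 of the 6 fits with 1 library left out (up to 0.159), without both replicate 1 libraries (0.181) and without TGFalpha replicate 2 and control replicate 1 together (0.177). Srebf2, the gene of the sterol-responsive SREBP-2, had all TGFalpha values below all control values but did not pass (log2 fold change -0.36 ± 0.15, adjusted p = 0.162). Pparg, a lipid-sensing nuclear receptor gene, had a log2 fold change of -0.57 ± 0.30 (adjusted p = 0.268; -0.92 without TGFalpha replicate 2 and -0.30 without both replicate 1 libraries).

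Of 14 tested genes of further synthesis and supply, 1 fell, beside 3.29% of all tested genes. Prkaa2, a catalytic subunit gene of AMP-activated kinase, which inhibits acetyl-CoA carboxylase, was at 30.3, 22.9 and 35.3 CPM in TGFalpha lungs and at 54.5, 48.6 and 56.4 CPM in control lungs (log2 fold change -0.85 ± 0.18, edgeR adjusted p = 0.0319). In 5 of the 6 fits with 1 library left out it no longer passed. Acacb, the gene of the second acetyl-CoA carboxylase, which is tied to control of oxidation, was lower in every TGFalpha library than in any control library but did not pass (log2 fold change -0.67 ± 0.27, adjusted p = 0.16; -0.23 without TGFalpha replicate 2 and control replicate 1 together).

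Among 16 tested elongation and desaturation genes, 2 rose, beside 5.03% of all tested genes, and both encode dehydratases of the elongation cycle. Hacd1 was at 15.6, 13.1 and 9.68 CPM in TGFalpha lungs and at 5.42, 6.65 and 6.89 CPM in control lungs (log2 fold change 1.01 ± 0.24, edgeR adjusted p = 0.0423). Hacd2 was at 42, 38.6 and 33.4 CPM in TGFalpha lungs and at 26.1, 18.7 and 23.2 CPM in control lungs (0.74 ± 0.18, adjusted p = 0.0422). Neither group pair overlapped, and the calls were lost in 5 and 4 of the 6 fits with 1 library left out. Hacd1 is known for its role in muscle, and the log2 fold change of Hacd1 without the replicate 1 libraries was 0.74 (adjusted p = 0.185). Its call was also lost without TGFalpha replicate 2 (adjusted p = 0.0901), control replicate 2 (0.124) or control replicate 3 (0.138). The part of the muscle transcripts in this call was not tested.

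Fatty acid oxidation had 17 of 22 genes with positive changes, beside 8191 of all 16089 tested genes. Its median log2 fold change was 0.27, but only Cpt1c, 1 of the 22, passed, beside 8.33% of all genes. The median was 0.04 without TGFalpha replicate 1 and 0.30 without control replicate 1, the libraries with skeletal muscle transcripts, whose part was not tested. Cpt1c, the brain-type member of the carnitine palmitoyltransferase 1 family, which sits in the endoplasmic reticulum and contributes little to oxidation, was at 13.9, 15.2 and 12.7 CPM in TGFalpha lungs and at 3.41, 4.72 and 4.93 CPM in control lungs. It rose 3.2-fold (log2 fold change 1.68 ± 0.23, edgeR adjusted p = 0.00665) and was called in all 16 alternative fits.

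None of 17 acyl activation and glyceride synthesis genes, 19 droplet and lipolysis genes and 17 surfactant phospholipid genes passed by edgeR. In the same order, 6, 2 and 4 had an unadjusted p under 0.05, beside 27% of all tested genes. DESeq2 called 2, 0 and 2, beside 2503 of the 16756 genes it tested. The smallest adjusted p values belonged to Acsl4, an acyl-CoA synthetase gene that prefers arachidonate (log2 fold change 0.69 ± 0.20, adjusted p = 0.0733), to Hilpda, an inhibitor gene of droplet lipolysis (-0.61 ± 0.22, adjusted p = 0.127; -0.35 without control replicate 3), and to Pla2g1b, a secreted phospholipase gene (0.92 ± 0.25, adjusted p = 0.0617). The median log2 fold changes of the 3 lists were -0.01, 0.02 and -0.10.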

How the data were processed

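The authors deposited raw gene counts for 6 lung libraries, and nothing had been normalized. Per the labels' protocols, total RNA came from an RNeasy kit and libraries followed standard Illumina steps. The submitters' processing notes list bcl2fastq, CASAVA 1.8, TopHat, DESeq and build mm10. Which program counted reads, on which strand and with which annotation is not given in the sources used here. Symbols came from RefSeq on GRCm38.p6 for 23976 of 24061 identifiers. The remaining 85 held 1.73 to 3.8% of counts and stayed in the totals. Libraries of a group differed far beyond sampling noise (chi-square over degrees of freedom at least 46.6), so none was a duplicate.

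The test was edgeR 4.0.16 in R 4.3.3, a quasi-likelihood F test with TMM scaling, edgeR's expression filter, group as the only term and Benjamini-Hochberg adjustment over all tested genes at 0.05. It was tested on simulated counts. Precision rests on 3 libraries a group, with a common biological coefficient of variation of 0.295. Standard errors were derived from the coefficient and its F statistic.

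The members, lists and markers were chosen with earlier results of these data known. Genes named were all members, the called genes of each list or else the one with the smallest adjusted p, preset partners of members, and the nearest profiles. Lep and Adipoq were named after their values were seen. Alternatives were DESeq2 size factors, library totals, testing every gene with a count, a tighter cut at 1 CPM in 3 libraries, a replicate block, limma-voom 3.58.1, DESeq2 1.42.0, scaling without the 20 most abundant genes, left-out libraries and a threshold of 0.01.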

Additional observations from a re-analysis of the deposited data

How the results depend on the processing

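Limits: with 3 libraries a group, changes of the size seen for Scd1, Scd2 and Lpl did not pass, and most list calls were lost when 1 library was left out. The cause of the changes below was not tested. The number of genes called was 1340, against 2503 by DESeq2, 260 at a threshold of 0.01, 238 to 1088 with 1 library left out, 473 without both replicate 1 libraries and 850 without control replicate 1 and TGFalpha replicate 2, the macrophage-rich pair, a choice made after seeing the data. Cd36 stayed negative in all 16 alternative fits, at -1.13 to -0.85 with 1 library left out, -1.05 without both replicate 1 libraries and -1.04 (adjusted p = 0.0542) without control replicate 1 and TGFalpha replicate 2. The sign of members with changes near 0 turned. Acaca was at 0.000227 by limma-voom, 0.000885 with the replicate block, -0.0885 to 0.13 with 1 library left out, 0.22 without both replicate 1 libraries and 0.0732 without the macrophage-rich pair. Without both replicate 1 libraries Fasn was at 0.57 and Elovl6 at 0.45. Fasn ran from -0.0936 to 0.39 with 1 library left out, and Elovl6 from -0.25 to 0.33, with -0.12 without the macrophage-rich pair. Srebf1 was at -0.0128 with DESeq2 size factors, -0.00449 with no filter, -0.00208 with the stricter filter, -0.012 by DESeq2, -0.0105 without the 20 most abundant genes, -0.0641 to 0.0889 with 1 library left out (negative without TGFalpha replicate 3, control replicate 1 or control replicate 3) and -0.0197 without the macrophage-rich pair. Plin2 ran from -0.32 to 0.27, with 0.31 without both replicate 1 libraries and 0.0434 without the macrophage-rich pair.

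Members called numbered 0 to 1 with 1 library left out, and 0 under either pair removal and at 0.01; the same values held for the synthesis and supply list and for the regulators, where library totals and the replicate block (Insig1 adjusted p = 0.0525) also gave 0. Elongation genes called were 0 to 2 with 1 library left out, 1 with the replicate block, and 0 under either pair removal and at 0.01. DESeq2 called 2 glyceride, 5 uptake and 2 surfactant genes; uptake calls were 0 to 4 with 1 library left out and 0 at 0.01, and the replicate block called 1 surfactant gene. The regulator median ran from -0.0128 to 0.0698 with 1 library left out and was 0.00326 without both replicate 1 libraries. The elongation median was -0.11 with no filter, -0.12 by DESeq2, -0.0893 to 0.18 with 1 library left out, 0.14 without both replicate 1 libraries and 0.23 without the macrophage-rich pair. The glyceride median was 0.0635 with no filter, 0.0556 by DESeq2, -0.0691 to 0.0201 with 1 library left out and 0.16 without the macrophage-rich pair. The uptake median ran from -0.0322 to 0.36, and the oxidation median from 0.0399 to 0.34, with 0.0712 without both replicate 1 libraries. Deviations of same-numbered libraries correlated at 0.42, -0.05 and 0.22, so the numbers were not taken to pair the samples, and the replicate block called 1470 genes.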
